A study of Mus musculus with 2 samples.

Results

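The microRNA (miRNA) cluster running from miR-379 to miR-410 is a dense row of hairpins in the imprinted Dlk1-Dio3 domain of mouse chromosome 12. Its members were taken by hairpin name from a fixed list of 39 hairpins, and 40 of the 281 mature strands in the deposited table belong to them. These 40 strands come from 30 of the 39 hairpins: 10 hairpins have both strands listed, 18 have the 3p strand alone and 2 have the 5p strand alone. The other 9 hairpins (mir-1197, mir-666, mir-654, mir-539, mir-544, mir-668, mir-453, mir-412 and mir-3072) are not analysed here.

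Liver small RNA was compared between 1 library of a wild-type mouse and 1 library of a mouse labelled as a DICER1 mutant, both on the C57BL/6 background and 3 months old. The series title speaks of DICER1 syndrome, an inherited predisposition to tumours in people. Which variant the mouse carries is not stated, the design text mentions normal liver and liver cancer without saying which library is which, and the column headers write hDICER1_Mut. Depth, taken from the authors' counts and RPM values (RPM is a read count scaled to the library total), was 11432192 reads in the wild type and 18480608 in the mutant, and the 281 listed miRNAs took 81.8% and 61.2% of them. With 1 library per genotype, effects of genotype, animal and library cannot be told apart, no test was made, and every interval given is a 95% interval for counting error only.

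Most hairpins of this cluster are transcribed together from the maternal chromosome, within or upstream of the noncoding gene Mirg, and are then cut out by Drosha and Dicer. Dicer's RNase IIIb domain frees the 5p strand, from the 5′ side of the hairpin, and its RNase IIIa domain the 3p strand. The cluster is best known from embryo, placenta and brain, and mice that lack it show poor control of energy metabolism in the newborn liver. Adult liver normally holds little of it.

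Hairpins are shown first, to make the 5p and 3p sides visible: mir-411 holds the most abundant member of the wild type, mir-300 that of the mutant, and mir-154 has the widest gap in strand balance. Sequences are from RefSeq on GRCm38.p6, run 5′ to 3′, lie on the plus strand of chromosome 12, and have the 5p strand and then the 3p strand in capitals.
mir-411, chr12:109710175-109710256: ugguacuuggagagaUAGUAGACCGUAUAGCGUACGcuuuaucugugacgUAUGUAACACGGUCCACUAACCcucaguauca
mir-300, chr12:109724313-109724391: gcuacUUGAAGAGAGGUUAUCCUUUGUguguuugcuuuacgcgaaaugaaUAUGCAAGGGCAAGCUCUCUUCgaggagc
mir-154, chr12:109738433-109738498: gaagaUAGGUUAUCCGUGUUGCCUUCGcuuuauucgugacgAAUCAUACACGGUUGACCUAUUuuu

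The mature strands on which the results turn are given next, with the seed in capitals. The seed, bases 2 to 8, is the part of a miRNA that pairs with its targets. Of the 40 listed strands 38 had a mature sequence in the RefSeq table, and miR-376c-3p and miR-487b-3p did not.
miR-300-3p: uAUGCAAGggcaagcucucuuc
miR-381-3p: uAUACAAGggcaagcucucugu
miR-409-3p: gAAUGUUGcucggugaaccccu
miR-410-3p: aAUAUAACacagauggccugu
miR-485-3p: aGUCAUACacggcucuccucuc
miR-496a-3p: uGAGUAUUacauggccaaucuc
miR-154-3p: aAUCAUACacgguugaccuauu
miR-154-5p: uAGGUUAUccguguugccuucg
miR-379-5p: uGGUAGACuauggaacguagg
miR-379-3p: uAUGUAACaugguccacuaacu
miR-411-5p: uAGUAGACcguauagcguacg
miR-411-3p: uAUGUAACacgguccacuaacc
miR-541-5p: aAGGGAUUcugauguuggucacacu
miR-376a-3p: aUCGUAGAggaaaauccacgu
miR-376b-3p: aUCAUAGAggaacauccacuu
miR-299a-3p: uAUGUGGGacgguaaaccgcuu
miR-299b-3p: uAUGUGGGacgguaaacc

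Seeds were almost all different. Apart from miR-299a-3p and miR-299b-3p, the only seed held by more than 1 listed strand was AUGUAAC, of miR-379-3p and miR-411-3p. These 2 strands differ by U10C and U22C, with positions counted from 1 at the 5′ end and the base of the first-named strand written first. miR-300-3p and miR-381-3p differ by G4A, U21G and C22U, and miR-376a-3p and miR-376b-3p by G4A, A13C and G20U, so that both pairs differ at position 4 inside the seed. Editing of adenosine to inosine, which sequencers read as G, is known in miR-376 and miR-381 strands, and the sources used here do not say how reads with a mismatch were counted. A miR-381-3p read with G in place of A at position 4 would differ from miR-300-3p only at positions 21 and 22. Whether such reads were counted for miR-300-3p was not tested. The letters ACACGG, which recur behind or inside the seed, were found in 5 of 25 3p sequences of the cluster without miR-299b (miR-411-3p, miR-323-3p, miR-494-3p, miR-485-3p and miR-154-3p), in 0 of 11 5p sequences, and in 2 of the 1641 mature mouse miRNAs of the table outside the listed cluster strands (0.122%). Only the mature strand itself was searched, and the letters were chosen after these sequences had been seen.

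miR-299b needs a separate word. Its hairpin lies on the minus strand opposite mir-299a and is the reverse complement of a stretch of it. miR-299b-5p is contained in miR-299a-5p from position 2 and miR-299b-3p in miR-299a-3p from position 1, and the counts were 13 and 65 reads for both hairpins in the wild type, and 217 and 3641 for mir-299a against 215 and 3561 for mir-299b in the mutant. The 2 hairpins therefore cannot be told apart, and the main values are also given without miR-299b.

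All 40 listed strands of the cluster were higher in the mutant library. Together they went from 3950 reads, or 346 RPM, to 187226 reads, or 10131 RPM, which is 0.0346% of wild-type reads (interval 0.0335% to 0.0356%) and 1.01% of mutant reads (interval 1.01% to 1.02%), a ratio of 29.3 (interval 28.4 to 30.3). Per strand, the range in the wild type was 0.0875 to 185 RPM with a median of 0.525, and in the mutant 1.57 to 3249 RPM with a median of 20.7. All 40 were at least 4-fold higher with an interval above equality, 36 were at least 10-fold higher, and in 24 the whole interval lay above 10-fold. Of the 40, 14 had at most 3 wild-type reads and could be listed only with a high mutant value, so these counts are in part set by the list. The 19 strands with at least 10 wild-type reads had ratios from 5.18 to 257, with a median of 33.9. Over the 276 miRNAs of the table that reached 10 reads in both libraries together, 62.0% were at least 2-fold higher, the same 62.0% at least 4-fold and 40.2% at least 10-fold, and 24.3% had an interval wholly above 10-fold. No miRNA in the authors' deposited table has a signed fold smaller than 2 in size, and the smallest of a cluster strand was 2.17. Strands with smaller changes are thus absent from the list, and a direction shared by all listed members describes the listed strands alone. The members' median log2 ratio, computed with 0.5 reads added, was 4.86 (range 2.37 to 8.29), against 2.74 for all listed miRNAs and 2.38 for the 236 outside the cluster.

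The size of every ratio depends on how the libraries are scaled. By the authors' own factors each mutant to wild-type ratio is 2.38-fold smaller than by RPM, a shift of -1.25 on the log2 scale, and all 40 strands were still at least 2-fold higher. Of the 276 miRNAs of the table with at least 10 reads, 171 were then at least 2-fold higher and 105 at least 2-fold lower. With DESeq2 size factors, which set the median listed miRNA close to equality, ratios are 6.62-fold smaller, 30 of the 40 were still at least 2-fold higher, and miR-379-5p turned lower, with a ratio of 0.783 (interval 0.633 to 0.978). Of the same 276 miRNAs, 75 were at least 2-fold higher with these size factors and 105 at least 2-fold lower. Strand balance and composition within the cluster, given further on, do not depend on scaling.

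**Figure D1:**
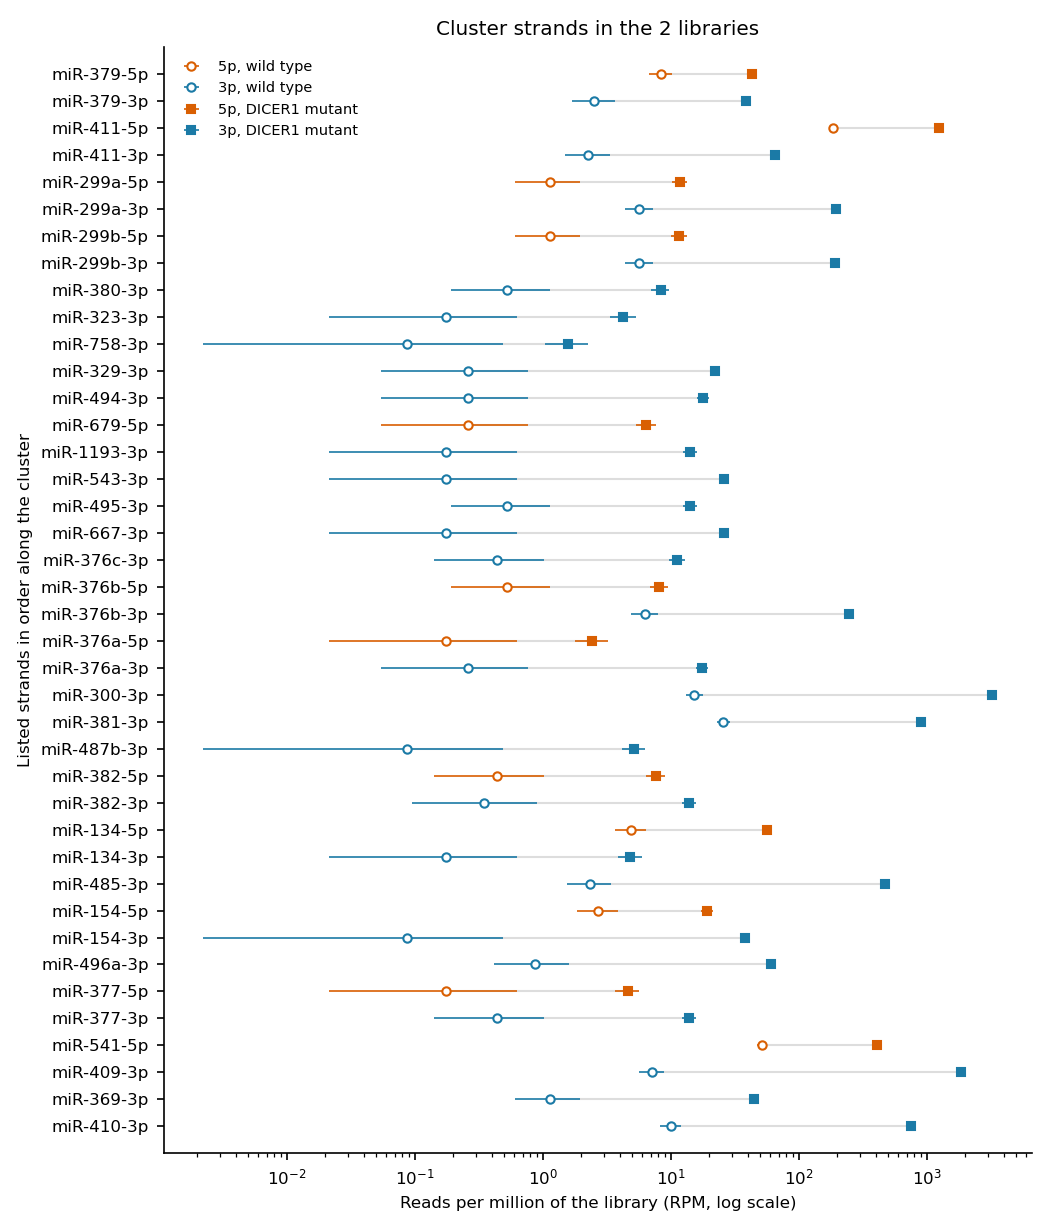
Each row is 1 listed strand in its order along the cluster, and the x axis gives its level in RPM on a log scale, with open circles for the wild-type library, filled squares for the mutant library, orange for 5p, blue for 3p and bars for the exact Poisson 95% interval. Mutant values lie to the right of wild-type values in every row, and miR-300-3p moves from 15.3 to 3249 RPM while miR-411-5p moves from 185 to 1239 RPM.

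Levels of the abundant members were as follows. miR-300-3p had 175 reads (15.3 RPM) in the wild type and 60044 reads (3249 RPM) in the mutant, a ratio of 212 (interval 183 to 248). miR-409-3p went from 82 reads (7.17 RPM) to 34123 (1846 RPM), a ratio of 257 (interval 207 to 324). These 2 strands ranked 4 and 7 among members in the wild type and were the 2 most abundant members in the mutant.

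miR-411-5p, the leading member in the wild type with 2113 reads (185 RPM), had 22903 reads (1239 RPM) in the mutant, a ratio of 6.71 (interval 6.41 to 7.01). miR-541-5p, the second in the wild type, went from 589 reads (51.5 RPM) to 7555 (409 RPM), a ratio of 7.93 (interval 7.30 to 8.64). Both of the leading wild-type strands were thus 5p strands with small ratios, and their intervals lay far below those of miR-300-3p and miR-409-3p.

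miR-381-3p, close in sequence to miR-300-3p, went from 294 reads (25.7 RPM) to 16762 (907 RPM), a ratio of 35.3 (interval 31.4 to 39.7). Its interval did not overlap that of miR-300-3p, but the 2 strands differ at only 3 positions, and whether reads were exchanged between them was not tested. miR-410-3p, at the far end of the listed cluster, went from 115 reads (10.1 RPM) to 13918 (753 RPM), a ratio of 74.9 (interval 62.3 to 90.8). miR-485-3p, whose hairpin overlaps an exon of Mirg, went from 27 reads (2.36 RPM) to 8688 (470 RPM), a ratio of 199 (interval 137 to 302), which overlaps the intervals of miR-300-3p and miR-409-3p. miR-496a-3p, from an intron of Mirg, went from 10 reads (0.875 RPM) to 1129 (61.1 RPM), a ratio of 69.8 (interval 37.8 to 146), an interval that includes the ratio of miR-410-3p.

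The miR-376 strands belong to a group known in brain for editing that redirects their targets. miR-376b-3p went from 72 reads (6.30 RPM) to 4542 (246 RPM), a ratio of 39.0 (interval 30.9 to 50.0). miR-376a-3p, with 3 wild-type reads against 327, had a ratio of 67.4 (interval 22.9 to 329), and miR-376c-3p, with 5 against 208, a ratio of 25.7 (interval 10.9 to 80.1). The intervals of these 3 3p strands overlap. miR-299a-3p went from 65 reads (5.69 RPM) to 3641 (197 RPM), a ratio of 34.7 (interval 27.1 to 45.0).

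The smallest ratios among members with at least 10 wild-type reads were all of 5p strands. miR-379-5p, which gives the cluster its name, had 96 reads (8.40 RPM) against 804 (43.5 RPM), a ratio of 5.18 (interval 4.19 to 6.47). miR-154-5p, from an intron of Mirg, had 31 reads (2.71 RPM) against 354 (19.2 RPM), a ratio of 7.06 (interval 4.89 to 10.6). The intervals of miR-379-5p and miR-154-5p overlap. miR-299b-5p and miR-299a-5p, which share their reads, followed with ratios of 10.2 and 10.3.

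Many members were close to undetected in the wild type. In 21 of the 40 there were fewer than 10 wild-type reads, and in 14 at most 3, and at these depths 3 reads equal 0.262 RPM (wild type) or 0.162 RPM (mutant). Those 14 had between 29 and 701 reads in the mutant, so that they had to differ in order to be listed, and their ratios are poorly fixed. With 1 wild-type read each, miR-154-3p had 701 mutant reads (ratio 434, interval 77.6 to 17152), miR-487b-3p 95 (ratio 58.8, interval 10.3 to 2345) and miR-758-3p 29 (ratio 17.9, interval 2.97 to 733).

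With 2 wild-type reads each, miR-543-3p had 486 mutant reads (ratio 150, interval 41.4 to 1245) and miR-667-3p 483 (ratio 149, interval 41.1 to 1237). Also with 2, miR-1193-3p had 262 (ratio 81.0, interval 22.2 to 673), miR-134-3p 89 (ratio 27.5), miR-377-5p 85 (ratio 26.3), miR-323-3p 79 (ratio 24.4) and miR-376a-5p 45 (ratio 13.9). With 3, miR-329-3p, which with miR-134 is known in rat neurons for a role in dendrite growth, had 411 (ratio 84.7, interval 28.8 to 413), miR-494-3p 330 (ratio 68.0, interval 23.1 to 332), miR-376a-3p 327, as given with the other miR-376 strands, and miR-679-5p 119 (ratio 24.5, interval 8.196 to 121). An interval above equality carries no further information for these 14, since the table could list them only with a high mutant value. miR-369-3p, known in human cells for binding AU-rich elements of the tumour necrosis factor mRNA, went from 13 reads to 829, a ratio of 39.4 (interval 22.9 to 74.4).

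The 3p strands differed from the 5p strands in the size of the ratio. The 28 listed 3p strands had a median log2 ratio of 5.27 (ratios 15.2 to 434) and the 12 listed 5p strands a median of 3.42 (ratios 5.18 to 26.3). Without miR-299b these medians were 5.28 and 3.52. Of the 14 members with at most 3 wild-type reads, which could be listed only with a high mutant value, 3 are 5p strands and the others 3p. They weigh more on the 3p median, and the top 3p ratio, of miR-154-3p, rests on 1 wild-type read. Outside the cluster, the median was 2.96 for 116 listed 3p strands and 0.24 for 91 listed 5p strands with at least 10 reads. The gap between the 3p and 5p medians was thus wider outside the cluster than in it. Where the wild type had at least 10 reads, the 12 3p strands ranged from 15.2 to 257, with a median of 39.2. The 7 5p strands ranged from 5.18 to 11.5, with a median of 7.93, so the groups did not overlap. Without miR-299b these are 11 and 6 strands. Below that limit the groups did overlap, as in miR-377-5p and miR-679-5p, with ratios of 26.3 and 24.5. The lack of overlap at 10 wild-type reads was not particular to the cluster. Among the listed neighbouring strands of the same imprinted domain with at least 10 wild-type reads, every 5p ratio also lay below every 3p ratio. For the remaining listed miRNAs this comparison was not made. Summed over strands, 5p reads went from 256 to 1820 RPM, a ratio of 7.10 (interval 6.84 to 7.38), and 3p reads from 89.3 to 8311 RPM, a ratio of 93.1 (interval 87.5 to 99.1).

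Over all listed strands of the cluster, 5p reads were the larger part in the wild type and 3p reads in the mutant. 5p strands made up 74.2% (interval 72.8% to 75.5%) of the cluster's listed reads in the wild type and 18.0% (interval 17.8% to 18.1%) in the mutant. Without miR-299b the shares were 75.3% and 18.2%. Much of the wild-type value is miR-411-5p: without it 5p was the smaller part in both libraries, at 44.4% and 6.53%. Over the 9 hairpins with both strands listed, without miR-299b, 5p was the larger part in both, at 91.8% and 68.7%, while 18 hairpins enter the full sum with the 3p strand alone. Over all listed miRNAs outside the cluster that carry an arm in their name, the 5p share was 64.8% and 49.8%, and it was 40.9% and 37.4% when the dominant liver miRNA miR-192-5p was left out. Unlisted strands of the same hairpins are missing from these sums.

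**Figure D2:**
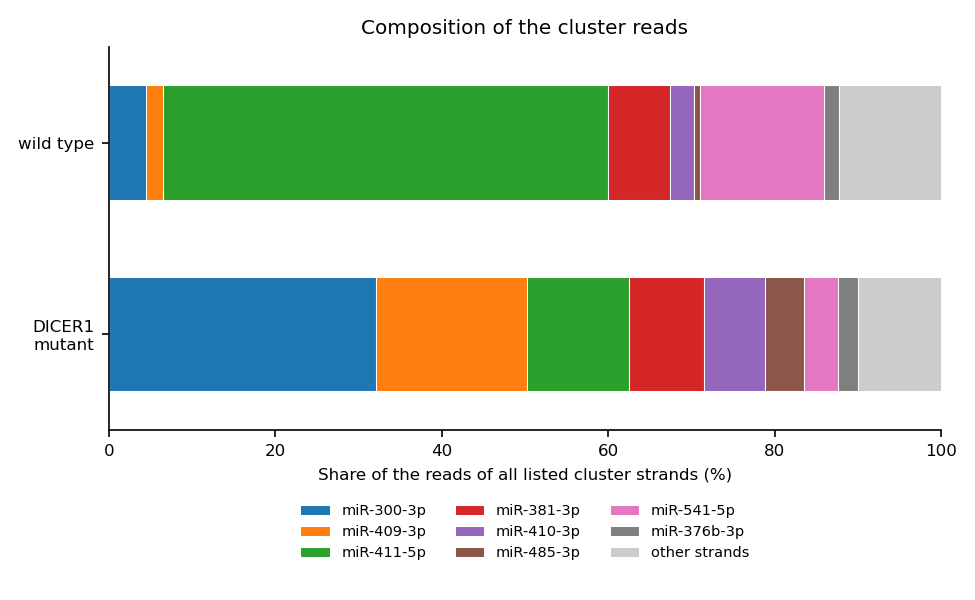
Each bar is 1 library, and the x axis gives the percentage of all reads of listed cluster strands, divided among the 8 members most abundant in the mutant and all other strands. miR-411-5p takes 53.5% of the wild-type bar and 12.2% of the mutant bar, and miR-300-3p 4.43% and 32.1%.

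The composition of the cluster shows the same values by member. miR-411-5p held 53.5% of the cluster's reads in the wild type and 12.2% in the mutant, and miR-541-5p 14.9% and 4.04%. miR-300-3p went from 4.43% to 32.1%, miR-409-3p from 2.08% to 18.2%, miR-410-3p from 2.91% to 7.43% and miR-485-3p from 0.684% to 4.64%. miR-381-3p, at 7.44% and 8.95%, had nearby shares whose intervals do not overlap (6.64% to 8.31% and 8.82% to 9.08%). Across 38 strands without miR-299b, wild-type and mutant RPM had a Spearman rho of 0.78, and it was 0.99 over the 11 5p strands and 0.78 over the 27 3p strands. These correlations are descriptive, since all strands share the same 2 libraries.

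In the family names of the deposited table, the mir-154 family, with 12 of the hairpins here, went from 65.0 to 6986 RPM and from 19.2% to 70.4% of the cluster's reads without miR-299b. The mir-379 family, with the hairpins mir-379, mir-411, mir-380 and mir-758, went from 199 to 1397 RPM and from 58.7% to 14.1%. The summed ratio was 107 (interval 100 to 116) in the mir-154 family and 7.03 (interval 6.74 to 7.34) in the mir-379 family. In the mutant the mir-154 sum is mostly miR-300-3p and miR-409-3p, which hold 257 of its 743 wild-type reads and 94167 of its 129104 mutant reads, and the median ratio of its strands was 39.6. The mir-379 family sum is mostly miR-411-5p, and its 3p strands had ratios of 15.2 (miR-379-3p), 28.9 (miR-411-3p), 15.9 (miR-380-3p) and 17.9 (miR-758-3p). The mir-368 family, which holds the miR-376 hairpins, had a summed ratio of 37.1 (interval 30.0 to 46.3).

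Hairpins with both strands listed allow the balance to be read within 1 precursor, without any scaling between libraries. Their balance is given as a log2 odds ratio, mutant against wild type, in which a value below 0 is a smaller part for the 5p strand. It was below 0 in all 10 hairpins, with a median of -1.65 (-1.53 without miR-299b), and in 46 of the 58 such hairpins of the whole table (79.3%). Its interval lay below 0 in 6 of 10 (mir-379, mir-411, mir-299a, mir-299b, mir-376b and mir-154), which is 5 of 9 without miR-299b. Over all 58 listed hairpins with both strands and at least 10 reads per strand, 55.2% moved toward 3p by the same rule, so the share in the cluster was close to that of the whole table. Outside the cluster the median log2 odds ratio was -0.27 over 48 hairpins, of which 26 moved toward 3p and 2 toward 5p. In the cluster, the 3p strands of mir-134, mir-154 and mir-376a had at most 3 wild-type reads, as did the 5p strands of mir-376a and mir-377. The table could list such strands only with a high mutant value, so the balance of these hairpins is in part set by the list.

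**Figure D3:**
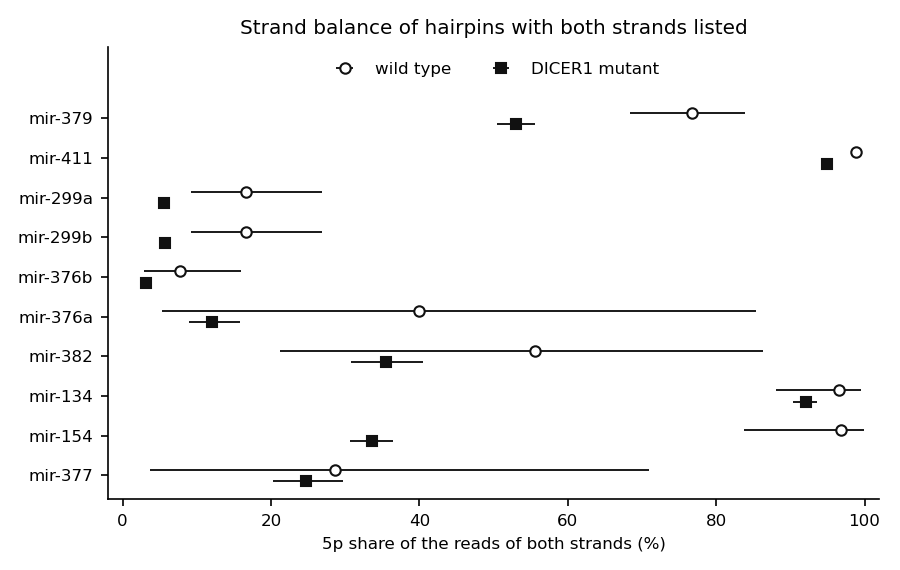
Each row is 1 cluster hairpin with both strands listed, in order along the cluster, and the x axis gives the 5p percentage of the reads of both strands, with open circles for the wild type, filled squares for the mutant and bars for the Clopper-Pearson 95% interval. The mutant point lies left of the wild-type point in all 10 rows, with the widest gap in mir-154, from 96.9% to 33.6%.

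The leading strand of mir-154 differed between the libraries. The 5p strand had 31 wild-type reads and the 3p strand 1, a 5p share of 96.9% (interval 83.8% to 99.9%). In the mutant there were 354 and 701 reads, a share of 33.6% (interval 30.7% to 36.5%), and the log2 odds ratio was -5.38 (interval -7.75 to -3.01). The size rests on a single wild-type 3p read, of a strand that the table could list only with a high mutant value. The gap between the 2 shares is therefore in part a property of the list.

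mir-379 went from 96 5p and 29 3p reads to 804 and 712, a 5p share of 76.8% (interval 68.4% to 83.9%) and then 53.0% (interval 50.5% to 55.6%). mir-411 stayed dominated by its 5p strand, with 2113 and 26 reads against 22903 and 1216, a share of 98.8% (interval 98.2% to 99.2%) and then 94.96% (interval 94.7% to 95.2%). In odds, the 3p strand gained 2.90-fold (interval 1.89 to 4.43) in mir-379 and 4.24-fold (interval 2.87 to 6.24) in mir-411. The intervals of these 2 neighbours overlap.

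Other hairpins led by 3p moved further in the same direction. mir-299a went from 16.7% 5p (interval 9.18% to 26.8%) to 5.62% (interval 4.92% to 6.40%), and mir-376b from 7.69% (interval 2.87% to 15.99%) to 3.20% (interval 2.71% to 3.74%). For mir-376b the log2 odds ratio was -1.44 (interval -2.62 to -0.25).

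In the remaining 4 hairpins a change was not detectable at this depth. mir-134, whose 5p strand limits the size of dendritic spines in rat neurons, had 56 5p and 2 3p reads against 1044 and 89, a log2 odds ratio of -0.95 (interval -2.81 to 0.90). Those of mir-376a, mir-382 and mir-377 were -2.36 (interval -4.75 to 0.02), -1.15 (interval -2.97 to 0.67) and -0.46 (interval -2.64 to 1.73), with 5, 9 and 7 wild-type reads over both strands. Their 5p shares were 40.0% and 12.1% in mir-376a, 55.6% and 35.5% in mir-382, and 28.6% and 24.8% in mir-377, wild type first.

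**Figure D4:**
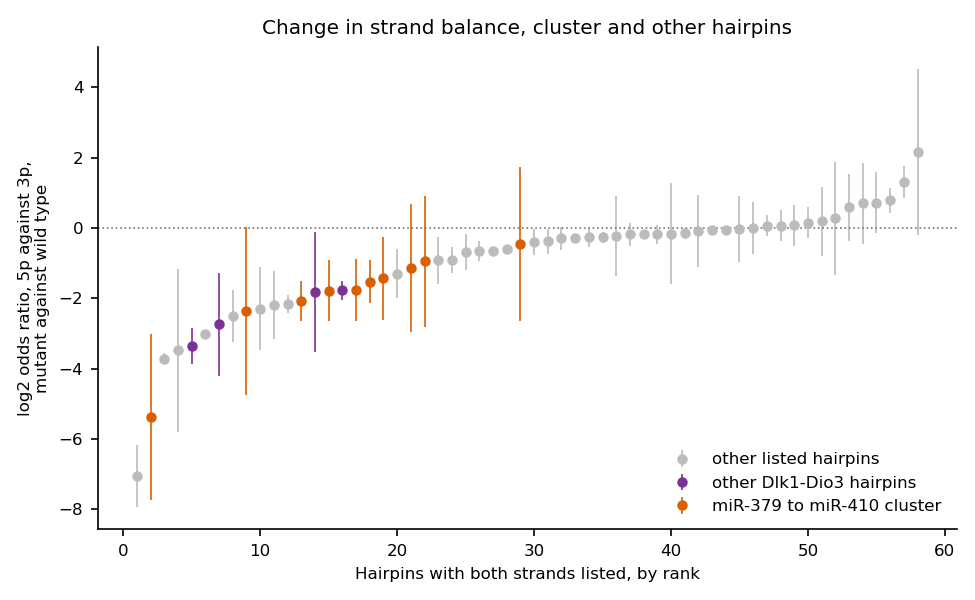
Every hairpin with both strands listed is ranked by the log2 odds ratio described in the text, mutant against wild type, with bars for the Woolf 95% interval. Orange points are the 10 cluster hairpins, all below 0, purple points the other 4 Dlk1-Dio3 hairpins, and grey points the 44 remaining hairpins, which range from -7.06 to 2.15.

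Along the cluster, the listed hairpins span 34.7 kb from mir-379 (109709060 to 109709125) to mir-410 (109743715 to 109743795) of GRCm38 chromosome 12, and 29 of 30 are on the plus strand. In GENCODE M21, 20 of the 30 lie outside annotated host genes, and the other 10, from mir-382 onwards, within Mirg: 6 overlap an exon of some transcript and 4 lie in introns. Without miR-299b, the 29 hairpins were divided in the middle of their order into a leading group of 15 (mir-379 to mir-376b) and a trailing group of 14 (mir-376a to mir-410). The median log2 ratio was 4.58 in the leading group and 5.18 in the trailing group. For 3p strands it was 4.97 over 14 strands and 5.91 over 13, and for 5p strands 3.33 over 5 and 3.54 over 6. The ranges of both groups overlap widely, at 2.37 to 6.98 and 2.81 to 8.29 over all strands.

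Divided into 3 parts, the 3p medians were 4.83, 5.35 and 6.15, and the medians over all strands 4.37, 5.18 and 5.08. Spearman's rho between distance from the start of mir-379 and log2 ratio was 0.31 over 38 strands, 0.47 over 27 3p strands and 0.65 over the 11 3p strands with at least 10 wild-type reads. These values describe strands of the same 2 libraries and the same transcripts. High and low ratios also stood side by side: miR-300-3p and miR-381-3p start 2509 bases apart, with ratios of 212 and 35.3, and miR-409-3p and miR-369-3p, with 257 and 39.4, start 260 bases apart. For miR-300-3p and miR-381-3p, which differ at only 3 positions, an exchange of reads was not tested. Summed reads were more uneven: the leading group went from 215 to 2002 RPM and the trailing group from 124 to 7924 RPM. These sums rest largely on single strands. miR-411-5p alone had 185 and 1239 RPM in the leading group. In the trailing group miR-300-3p had 3249 RPM and miR-409-3p 1846 RPM in the mutant.

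**Figure D5:**
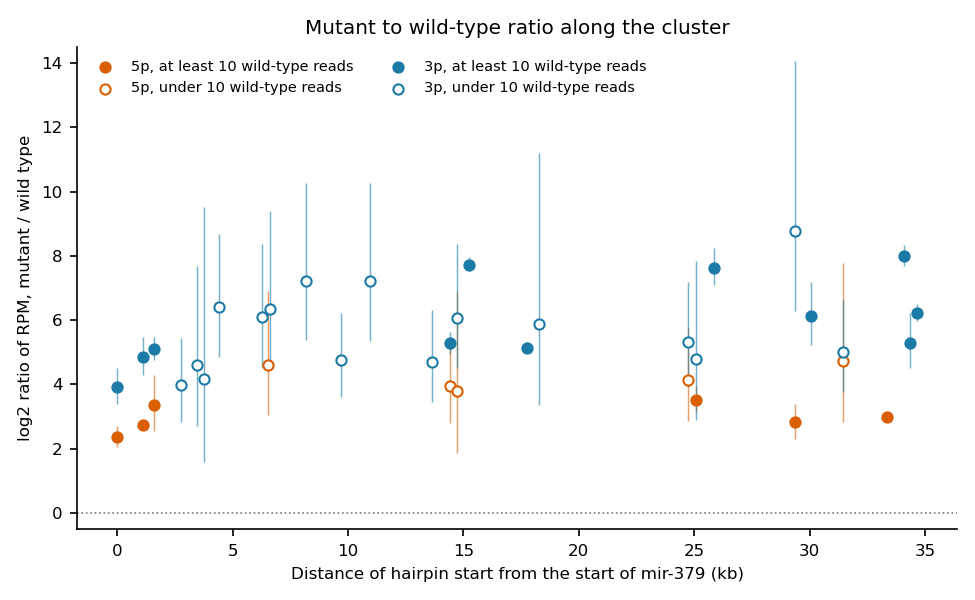
The x axis is the distance of each hairpin's start from the start of mir-379 in kb, and the y axis the log2 ratio of RPM without added reads, with bars for the Clopper-Pearson 95% interval and open points for strands with fewer than 10 wild-type reads; miR-299b is left out. Orange 5p points with at least 10 wild-type reads lie between ratios of 5.18 and 11.5 at both ends, below the filled blue 3p points, which start at 15.2.

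The neighbouring imprinted hairpins of the same domain, listed as 15 strands from 11 of 20 hairpins, were also higher, with ratios from 7.29 to 207 and a median of 39.5, and went from 712 to 46769 RPM in sum. That sum rests largely on miR-127-3p, which alone held 589 of the 712 wild-type RPM and 43617 of the 46769 mutant RPM. Both strands were listed for 4 of the 11 hairpins. In all 4 the interval of the log2 odds ratio lay below 0, and their median log2 odds ratio was -2.28.

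Markers of other cells moved as well, and in bulk tissue fewer cells of a type and less RNA per cell cannot be told apart. The 5 hepatocyte strands went in sum from 406849 to 163581 RPM, with 3 of 5 at least 2-fold lower and none higher. Most of that sum was miR-192-5p, with 3734406 wild-type and 2171524 mutant reads, and the ratios of the 5 strands ranged from 0.360 to 0.896. All 5 leukocyte strands were higher (1823 to 9661 RPM in sum), as were all 5 biliary and epithelial strands (161 to 4436 RPM), the 3 listed of 5 stromal and stellate strands (957 to 12142 RPM) and the 1 listed of 2 neuroendocrine strands, miR-375-3p (4.29 to 28.4 RPM). The 1 listed of 3 muscle strands, miR-133a-3p, went from 3.59 to 2.22 RPM, and the 2 endothelial strands are not analysed here. With DESeq2 size factors every ratio is 6.62-fold smaller. The RPM ratio was 5.30 for the leukocyte sum (4.78 to 10.1 per strand) and 6.62 for miR-375-3p, so these 2 directions depend on the scaling. Ratios of the biliary and epithelial strands started at 17.4 and those of the stromal and stellate strands at 10.5, above that factor. By RPM, 171 of the 276 listed miRNAs with at least 10 reads were at least 2-fold higher (62.0%) and 20 at least 2-fold lower, so most listed strands of any kind were higher. The part of these cell types in the values of the cluster was not tested.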

How the data were processed

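Small RNA of 1 wild-type and 1 mutant liver was sequenced with a SMARTer kit as 50 bp single ends, mapped to mm10 and to miRBase 22.1, and assigned to strands, all per the labels' protocols. Aligner and counting rule: not given in the sources used here. Labels and the design text name different sequencers. The authors deposited raw read counts and RPM values, log2 normalized values, a signed fold score per miRNA and p-values. The p-values were left out, since no replicates stand behind them. Library totals are the deposited counts divided by RPM.

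Members and lists were chosen with earlier results of these data known. Ratios of RPM have exact conditional binomial (Clopper-Pearson) intervals. Log2 ratios for medians have 0.5 reads added, scaled to the mean library size. Odds ratios have 0.5 added to each count and Woolf intervals. A count of 0 would allow 3 reads. Reads can be PCR copies of 1 molecule, so every interval is for counting error alone. Members named were the 10 most abundant in the mutant, the 5 highest and 5 lowest ratios with at least 10 wild-type reads, members with at most 3 wild-type reads, hairpins with both strands listed, strands sharing a seed and both ends of the cluster. Other members named (miR-376c-3p, miR-369-3p and miR-380-3p) and the spacing of neighbouring hairpins were chosen after their values were seen. GENCODE M21 (GRCm38, which is mm10) gave the coordinates. Alternatives were other scalings (edgeR 4.0.16 TMM, DESeq2 1.42.0 size factors, both on listed rows), pseudocounts, minimums and fold limits. Python 3.11.15 and SciPy 1.17.1 were used, and calculations were tested on simulated counts.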

Additional observations from a re-analysis of the deposited data

How the results depend on the processing

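No paired analysis was possible because each group has 1 library, and no replicate could be left out. The number of cluster strands at least 2-fold higher was between 30 and 40 under every scaling, minimum and fold limit run, with 30 for DESeq2 size factors and 39 for TMM, and none was at least 2-fold lower. Of the 276 listed miRNAs with at least 10 reads, 75 were at least 2-fold higher with DESeq2 size factors and 152 with TMM. The median log2 ratio of 4.86 became 3.61 with the authors' factors, 5.28 with the sum of listed counts, 3.42 with TMM, 2.14 with DESeq2 size factors and 4.28 without miR-192-5p and miR-22-3p in the totals. For 5p strands alone the median became 2.17 with the authors' factors, 1.98 with TMM and 0.70 with DESeq2 size factors, and for 3p strands 4.02, 3.83 and 2.54, and 4.69 without miR-192-5p and miR-22-3p. In the order of the first 5 scalings, the summed ratio of 29.3 became 12.3, 39.2, 10.8, 4.43 and 19.6, and it was 20.8 without miR-300-3p and 55.3 without miR-411-5p. These shifts follow from the construction of the scalings. Of single strands, miR-379-5p alone turned lower, at 0.783 with DESeq2 size factors. The 5p share of cluster reads was 44.4% and 6.53% without miR-411-5p, 18.2% in the mutant without miR-299b, and 91.8% and 68.7% over the 9 hairpins with both strands listed, without miR-299b, in wild type and mutant. The end of the cluster exceeded its start by 0.60 in median log2 ratio with the order split in 2 and by 0.71 with it split in 3. Adding 1 read to each count moved 7 of 10 hairpins toward 3p in place of 6. Leaving out miR-299b, miR-300-3p or miR-411-5p and keeping hairpins with both strands were chosen after seeing the data, except for miR-300-3p, which was planned as the most abundant strand. Low wild-type counts, at most 3 reads in 14 members, limit the size of their ratios.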
